A study of Mus musculus with 6 samples.

Results

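The 10 genes described here switch off the light response of photoreceptors and reset it through calcium. They encode the guanylate cyclase activators (*Guca1a*, *Guca1b*), the retinal guanylate cyclases (*Gucy2e*, *Gucy2f*), recoverin (*Rcvrn*), the visual pigment kinase GRK1 (*Grk1*), the RGS9 complex (*Rgs9*, *Rgs9bp*, *Gnb5*) and the rod sodium/calcium, potassium exchanger (*Slc24a1*). They were taken by symbol from a table of 11339 genes, and 10 of 10 were present. The list was selected on the measured difference between the genotypes as well as on gene function, since *Guca1a* was picked as being among the largest increases, so the values of the 10 genes in this contrast are a description. No p is given for them. Where calls of single genes among the 10, or the number of them called, are printed, nothing is read from these.

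The study asked what the histone methyltransferase MLL1 does in the developing mouse retina, and RNA was sequenced from whole retinas at postnatal day 14 (P14). The *Mll1KO* group had 3 samples from mice homozygous for floxed *Mll1* (fl/fl) that carried a Cre transgene, and the WT group had 3 samples from wild-type C57Bl6/J mice. Each sample was a biological replicate pooled from 2 retinas, and the libraries are named a, b and c within a group. The transgene drives Cre recombinase in retinal progenitors, and cells in which it does not act keep *Mll1*. The *Mll1* alleles were on a C57Bl6/J background. The WT mice carried neither floxed alleles nor Cre, so Cre and the loss of *Mll1* cannot be told apart. The paper's qRT-PCR at P14 used littermates without Cre as controls, while the WT mice of the RNA sequencing are not called littermates. Line and litter therefore cannot be told apart from genotype either.

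In the dark, cyclic GMP holds the channels of the outer segment open, and calcium enters through them and leaves through the exchanger. Light closes the channels, calcium falls, and the activator proteins then stimulate the cyclases, which restores cyclic GMP. Recoverin releases the kinase GRK1 at low calcium, so that the pigment is phosphorylated, while the RGS9 complex speeds the hydrolysis of GTP by transducin and ends its signal.

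Levels are the RPKM values made by the authors, that is, read counts scaled to the length of the gene and to the read total of the library. Read totals recovered from these values were 23836033, 19777205 and 19323512 in WT a, b and c, and 23348923, 19855963 and 17961097 in *Mll1KO* a, b and c. The 10 genes were read deeply, from 2159 reads for *Guca1a* in its lowest library to 44515 reads for *Slc24a1* in its highest. Fold changes are differences of log2(RPKM + 1), *Mll1KO* minus WT, with the standard error (SE) from limma over 11339 genes. A gene outside the list of 10 is said to have risen or fallen where its limma p, adjusted over 11339 genes by the Benjamini-Hochberg method, was under 0.05.

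*Kmt2a*, the gene that encodes MLL1, checks the genotype labels. It stood at 36.1, 36.9 and 34.6 RPKM in WT a, b and c and at 22.9, 20.4 and 22.3 RPKM in *Mll1KO* a, b and c. The *Mll1KO* libraries were all below the WT libraries, and *Kmt2a* fell by 0.69 on the log2 scale (SE 0.05, limma adjusted p = 2.77e-05). Reads from the whole gene were counted, so the value is not that of the floxed exons alone.

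The retinas held the photoreceptor markers that the name of the group calls for. All 16 rod markers and all 14 cone markers were listed. None of the 10 genes is on either list.

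*Guca1a*, which encodes the cyclase activator GCAP1, had the largest difference among the 10 genes. Its level was 138, 125 and 169 RPKM in WT a, b and c, and 393, 466 and 405 RPKM in *Mll1KO* a, b and c. The lowest *Mll1KO* library was thus well above the highest WT library, WT c. The means were 144 ± 22.7 RPKM in WT and 421 ± 39.1 RPKM in *Mll1KO* (SD, n = 3 each), a ratio of means of 2.92 and a log2 fold change of 1.55 (SE 0.10). Of the 11339 fold changes of the table, that of *Guca1a* was number 6 from the top. Its WT libraries also spread more than those of the other 9 genes, with a coefficient of variation of 15.8%.

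*Guca1b* encodes GCAP2, the related calcium sensor that also acts on the cyclases. It measured 192, 191 and 221 RPKM in WT a, b and c against 336, 359 and 376 RPKM in *Mll1KO* a, b and c. The groups did not overlap, and WT c was again the highest WT library. The log2 fold change was 0.83 (SE 0.07), from a mean of 201 ± 17.1 RPKM in WT to 357 ± 20.1 RPKM in *Mll1KO* (SD, n = 3 each), and it was number 37 from the top of the table.

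The order of the activators changed between the genotypes. The ratio of *Guca1a* to *Guca1b* RPKM within a library was 0.718, 0.657 and 0.767 in WT a, b and c, and 1.17, 1.30 and 1.08 in *Mll1KO* a, b and c. *Guca1b* was thus the more abundant activator per length in each WT library and *Guca1a* in each *Mll1KO* library. A ratio within a library does not depend on how the libraries are scaled to each other, but it does depend on the gene lengths behind RPKM, which were 871 bases for *Guca1a* and 2441 bases for *Guca1b*.

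*Gucy2e* encodes the retinal guanylate cyclase GC1, the main source of cyclic GMP in photoreceptors. Its level was 57.2, 56.1 and 57.0 RPKM in WT a, b and c and 73.0, 68.3 and 72.8 RPKM in *Mll1KO* a, b and c. The WT libraries were close together, with an SD of 0.602 RPKM, and lay below each *Mll1KO* library. The log2 fold change was 0.33 (SE 0.04).

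*Gucy2f*, which encodes the related cyclase GC2, was the least abundant of the 10 genes. It had 22.6, 23.8 and 21.2 RPKM in WT a, b and c, and 25.4, 27.8 and 26.0 RPKM in *Mll1KO* a, b and c. The groups were apart by a narrow gap between WT b and *Mll1KO* a, and the log2 fold change was 0.22 (SE 0.05). The ratio of *Gucy2e* to *Gucy2f* overlapped between the genotypes, at 2.52 ± 0.161 in WT and 2.71 ± 0.224 in *Mll1KO* (SD, n = 3 each).

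The activators and the cyclases therefore differed by unequal amounts. Summed over both activators, the level was 330, 316 and 390 RPKM in WT a, b and c and 729, 825 and 781 RPKM in *Mll1KO* a, b and c. Summed over both cyclases, it was 79.8, 79.8 and 78.2 RPKM in WT a, b and c and 98.5, 96.1 and 98.8 RPKM in *Mll1KO* a, b and c. Activator RPKM per cyclase RPKM was 4.36 ± 0.553 in WT and 7.96 ± 0.591 in *Mll1KO* (SD, n = 3 each), with the lowest *Mll1KO* library, a, at 7.40 and the highest WT library, c, at 4.99. These are transcript levels, and protein is not analysed here.

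**Figure D1:**
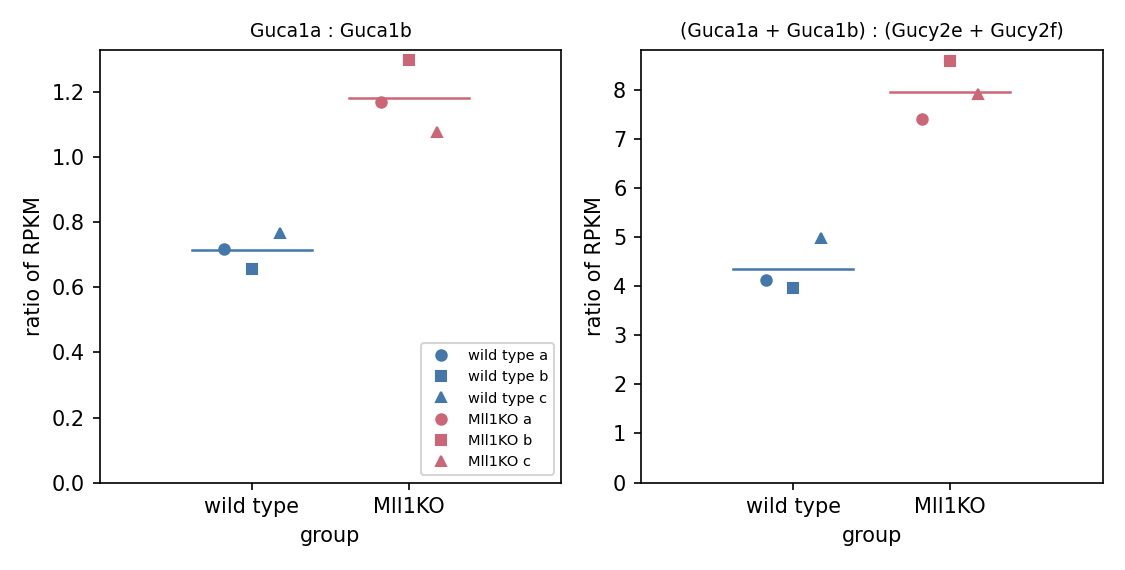
Ratio of RPKM within each library (y axis, no unit, starting at 0) by group (x axis), for *Guca1a* over *Guca1b* on the left and for both activators over both cyclases on the right. Points are the 3 WT and 3 *Mll1KO* libraries and lines are group means; the *Guca1a* to *Guca1b* ratio lies below 1 in WT, with a mean of 0.714, and above 1 in *Mll1KO*, with a mean of 1.18.

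*Rcvrn*, which encodes the calcium sensor recoverin, was the most abundant of the 10 genes and the one with the smallest difference. It stood at 1327, 1387 and 1367 RPKM in WT a, b and c and at 1440, 1454 and 1405 RPKM in *Mll1KO* a, b and c. The *Mll1KO* libraries lay above the WT libraries, yet the gap between WT b and *Mll1KO* c was smaller than the SD of either group (30.4 RPKM in WT and 24.9 RPKM in *Mll1KO*). The log2 fold change was 0.08 (SE 0.06).

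*Grk1*, which encodes the kinase that recoverin holds back, had 182, 197 and 202 RPKM in WT a, b and c and 232, 216 and 225 RPKM in *Mll1KO* a, b and c. The groups did not overlap, WT a and *Mll1KO* b being the lowest library of each, and the log2 fold change was 0.21 (SE 0.05). The ratio of *Rcvrn* to *Grk1* was accordingly lower in each *Mll1KO* library, at a mean of 6.39 ± 0.293 against 7.02 ± 0.266 in WT (SD, n = 3 each).

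In the RGS9 complex, the 3 subunits differed by different amounts. *Rgs9bp*, which encodes the membrane anchor of RGS9, had 75.2, 77.5 and 81.0 RPKM in WT a, b and c and 106, 106 and 109 RPKM in *Mll1KO* a, b and c. The libraries of each genotype were tight and the groups well apart, with a log2 fold change of 0.45 (SE 0.04), the largest after *Guca1a* and *Guca1b*.

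*Rgs9*, the catalytic subunit, measured 107, 102 and 109 RPKM in WT a, b and c and 117, 132 and 125 RPKM in *Mll1KO* a, b and c. The groups did not overlap, although *Mll1KO* a was close to WT c, and the log2 fold change was 0.23 (SE 0.05). The *Rgs9* to *Rgs9bp* ratio was lower in each *Mll1KO* library than in any WT library, with means of 1.16 ± 0.0771 and 1.36 ± 0.0557 (SD, n = 3 each).

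*Gnb5* encodes the G protein beta subunit that stabilises RGS9 and that is shared with other RGS proteins of the R7 family outside photoreceptors. It had 396, 396 and 420 RPKM in WT a, b and c and 405, 474 and 463 RPKM in *Mll1KO* a, b and c. *Mll1KO* a fell within the WT range, so *Gnb5* was the only one of the 10 genes whose groups overlapped, and its log2 fold change was 0.14 (SE 0.06). The RPKM of *Gnb5* rests on a length of 1188 bases, shorter than its 3115 annotated exon bases, so its rank against the other genes depends on that choice of length.

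*Slc24a1*, the rod exchanger that removes calcium from the outer segment, measured 298, 272 and 277 RPKM in WT a, b and c and 366, 362 and 358 RPKM in *Mll1KO* a, b and c. The *Mll1KO* libraries spanned a narrow range, with an SD of 3.66 RPKM, above all WT libraries, and the log2 fold change was 0.36 (SE 0.05). Relative to *Cnga1*, the rod channel subunit through which calcium enters, *Slc24a1* overlapped between the groups, at a ratio of 2.24 ± 0.142 in WT and 2.38 ± 0.120 in *Mll1KO* (SD, n = 3 each).

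**Figure D2:**
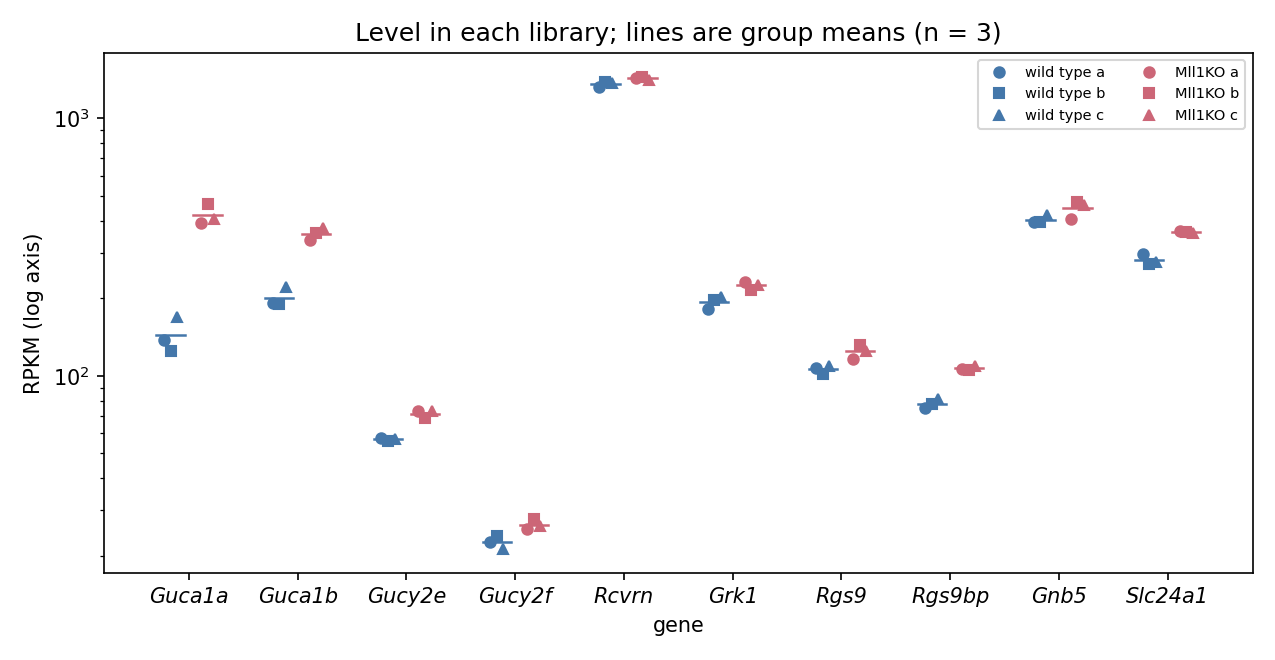
RPKM (y axis, log scale) of the 10 genes (x axis) in each of the 3 WT and 3 *Mll1KO* libraries, with lines at the group means. The widest gap between groups is that of *Guca1a*, from 144 to 421 RPKM, and *Gnb5* is the gene whose groups overlap.

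By mean level, the order in WT was *Rcvrn*, *Gnb5*, *Slc24a1*, *Guca1b*, *Grk1*, *Guca1a*, *Rgs9*, *Rgs9bp*, *Gucy2e* and *Gucy2f*. Of the neighbours in that order, *Guca1b* and *Grk1* overlapped between libraries. In *Mll1KO* the order was the same except that *Guca1a* moved from place 6 to place 3, where its libraries overlapped those of *Gnb5*, and *Slc24a1* and *Guca1b* overlapped. Summed over the 10 genes, the level was 2795, 2828 and 2925 RPKM in WT a, b and c and 3494, 3665 and 3567 RPKM in *Mll1KO* a, b and c.

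All 10 genes had a higher mean in *Mll1KO*, with a median log2 fold change of 0.28 against -0.03 over all 11339 genes. In the limma fit 8 of the 10 were higher in *Mll1KO*, the others being *Rcvrn* and *Gnb5*, where 8.81% of all genes were called higher, 14.5% lower and 23.3% in either direction. The call of *Rgs9* was lost without WT b, that of *Gucy2f* without *Mll1KO* b and that of *Grk1* without *Mll1KO* c. These calls were also lost when scaled to rod markers, and *Gnb5* was called higher without *Mll1KO* a. In 9 of the 10 all 3 *Mll1KO* libraries lay above all 3 WT libraries, which held for 14.6% of all genes, while 26.5% lay below. Nothing is read from these counts or from the calls of single genes among the 10, since the genes were chosen with this contrast in view.

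Rod markers also differed between the genotypes. RPKM is a share of the reads of a library. In bulk retina, changes in the number of photoreceptors, in RNA per photoreceptor and in the RNA of other cells cannot be told apart. Of the 16 rod markers, 10 rose and 2 fell (*Nr2e3* and *Samd7*), with a median log2 fold change of 0.25. Their summed level was 17203, 16201 and 16647 RPKM in WT a, b and c and 20735, 21096 and 20492 RPKM in *Mll1KO* a, b and c. Of the 14 cone markers, 7 rose and 1, *Opn1sw*, fell, with a median of 0.22. The cone sum was 627, 650 and 666 RPKM in WT a, b and c and 692, 732 and 743 RPKM in *Mll1KO* a, b and c, with *Gnb3* the most abundant gene at 198 RPKM. The part of these markers in the values of the 10 genes was not tested.

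Scaling each library to the rod markers lowered the differences of the 10 genes and turned the direction of *Rcvrn* and *Gnb5*. The median over all 11339 genes was then -0.17, that of the rod markers themselves 0.09 (4 higher and 3 lower), and that of the 10 genes 0.12. *Guca1a* was higher by 1.39 (SE 0.10) and *Guca1b* by 0.67 (SE 0.07) relative to rod markers. *Rgs9bp* (0.30), *Slc24a1* (0.20) and *Gucy2e* (0.17) were higher by less. *Rgs9* and *Gucy2f* (0.07 each), *Grk1* (0.05), *Gnb5* (-0.01) and *Rcvrn* (-0.08) differed by less than 0.1. Of the cone markers, 4 were then higher and 5 lower, with a median of 0.08. In that fit 5 of the 10 genes were called higher, where 3.89% of all genes were called higher and 56.3% lower, and nothing is read from this count either.

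**Figure D3:**
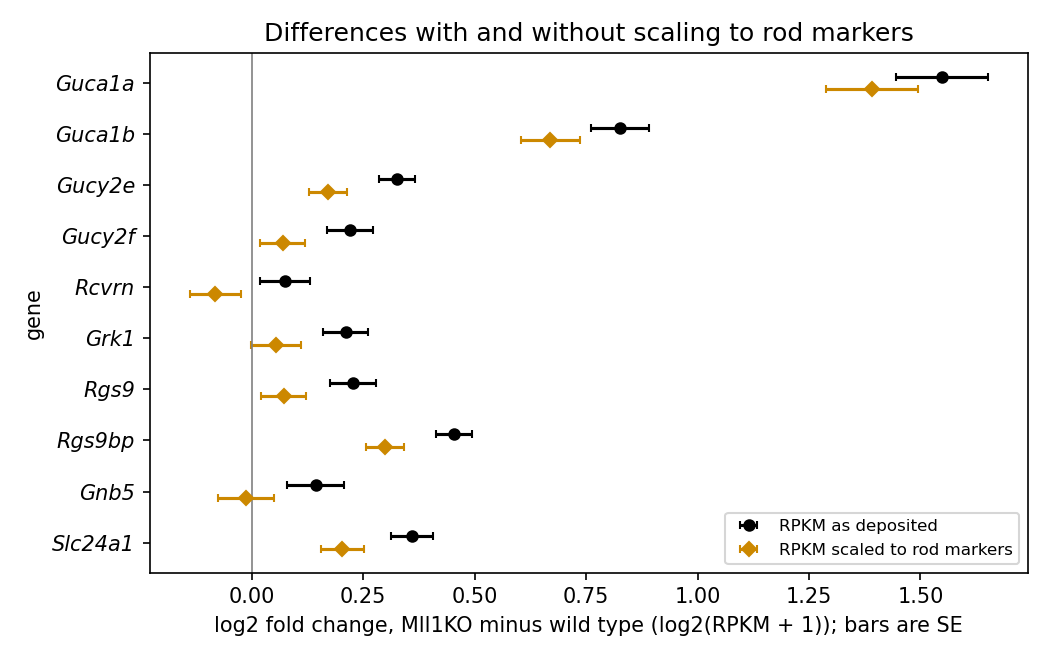
Log2 fold change of the 10 genes, *Mll1KO* minus WT (x axis, difference of log2(RPKM + 1)), by gene (y axis), with RPKM as deposited (circles) and scaled to rod markers (diamonds); bars are SE from limma with 3 libraries a group. *Guca1a* lies at 1.55 and 1.39 and *Guca1b* at 0.83 and 0.67, while *Rcvrn* and *Gnb5* pass from above to below 0 when scaled.

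Of 65 other symbols of the pathway, 61 were listed (*Cabp4*, *Npr1*, *Gucy1a1* and *Gucy1b1* were not, the last pair being present under their older symbols *Gucy1a3* and *Gucy1b3*). Of these, 21 rose and 4 fell, with a median log2 fold change of 0.10 that became -0.05 when scaled to rod markers, where 10 were higher and 18 lower. Among pigments, transducins and phosphodiesterases, 10 of 14 rose, with *Opn1mw* (0.56, SE 0.05, adjusted p = 8.29e-05), *Pde6a* (0.48, SE 0.04, adjusted p = 0.000101) and *Pde6c* (0.46, SE 0.04, adjusted p = 0.000114) highest. *Opn1sw*, the short-wavelength cone pigment, was the 1 gene of that list that fell (-0.44, SE 0.06, adjusted p = 0.00121). When scaled to rod markers, 6 genes of that list were higher and 3 lower, *Gnb3* and *Gngt2* being lower besides *Opn1sw*.

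Among the genes that act beside the 10 in shutoff, *Arr3*, the cone arrestin, rose by 0.66 (SE 0.08, adjusted p = 0.000358), and *Sag*, the rod arrestin, by 0.20 (SE 0.05, adjusted p = 0.0108). The R7 partners of *Gnb5* were mixed. *Rgs6* (0.23, adjusted p = 0.0255) and *Gpr158* (0.37, adjusted p = 0.000656) rose and *Gpr179*, a bipolar cell scaffold for R7 complexes, fell (-0.29, adjusted p = 0.00109). *Rgs7* (-0.11, adjusted p = 0.25; scaled to rod markers, -0.26, adjusted p = 0.00607) and *Rgs11* (0.12, adjusted p = 0.066) did not pass the test without scaling. Of the 13 genes in this list 4 rose and 2 fell (2 higher and 6 lower when scaled to rod markers), the other being *Calm2* (-0.15, adjusted p = 0.0474).

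Of 14 listed channels and calcium transporters, 5 rose and the other 9 did not pass the test (1 higher and 2 lower when scaled to rod markers, with the median turning from 0.12 to -0.03), with *Cngb3* (0.28, adjusted p = 0.047), *Cnga3* (0.27, adjusted p = 0.0118) and *Cnga1* (0.27, adjusted p = 0.00211) highest. The cone exchangers related to *Slc24a1* were not among them, *Slc24a2* standing at 0.14 (adjusted p = 0.0781) and *Slc24a4* at 0.10 (adjusted p = 0.157). Of 7 genes for the folding or transport of outer segment proteins, *Unc119* rose (0.19, SE 0.04, adjusted p = 0.0143). *Rd3*, which binds the cyclases and carries them from the inner segment, was at 63.1 RPKM in WT and 64.2 RPKM in *Mll1KO* (log2 fold change 0.02, adjusted p = 0.878), though 27.3% of its exon bases are shared with an antisense gene. Among 13 listed relatives of the cyclases and calcium sensors, *Hpcal1* rose (0.33, adjusted p = 0.00235) and *Kcnip1* fell (-0.28, adjusted p = 0.00496), and the median was -0.01 (1 higher and 7 lower when scaled to rod markers, median -0.16).

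The calls of *Calm2*, *Cngb3*, *Rgs6* and *Unc119* were each lost without at least 1 of the 6 libraries, with a highest adjusted p of 0.148, 0.153, 0.0998 and 0.064 respectively. The adjusted p of *Arr3*, *Pde6a*, *Opn1mw*, *Opn1sw*, *Gpr158*, *Gpr179*, *Hpcal1* and *Kcnip1* stayed under 0.05 without any 1 library. Scaled to rod markers, *Calm2* passed the test (adjusted p = 0.000887), while *Cngb3* (adjusted p = 0.124), *Rgs6* (adjusted p = 0.204), *Unc119* (adjusted p = 0.549), *Sag* (adjusted p = 0.393) and *Cnga3* (adjusted p = 0.0796) did not. *Sag* is itself a rod marker, and 9 of the 16 rod markers are on the pathway lists. The scaled values of these genes are therefore partly set by the scaling.

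*Guca1a* (ENSMUSG00000023982, chr17:47394558-47400584, minus strand) and *Guca1b* (ENSMUSG00000023979, chr17:47385393-47392967, plus strand) are neighbours on GRCm38. They face each other tail to tail with 1.59 kb between their ends, and share no annotated exon base. The listed genes on either side did not pass the test. They were called lower when scaled to rod markers, where 56.3% of all genes were called lower. *Mrps10*, a mitochondrial ribosomal protein gene beyond *Guca1b*, was at -0.13 (SE 0.07, adjusted p = 0.2; scaled, -0.24, adjusted p = 0.0135), and *Taf8*, a TFIID subunit gene beyond *Guca1a*, at -0.04 (SE 0.06, adjusted p = 0.654; scaled, -0.19, adjusted p = 0.0286). No stretch of 50 bases, the read length, in *Guca1a* or *Guca1b* transcripts occurs in transcripts of another annotated gene.

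**Figure D4:**
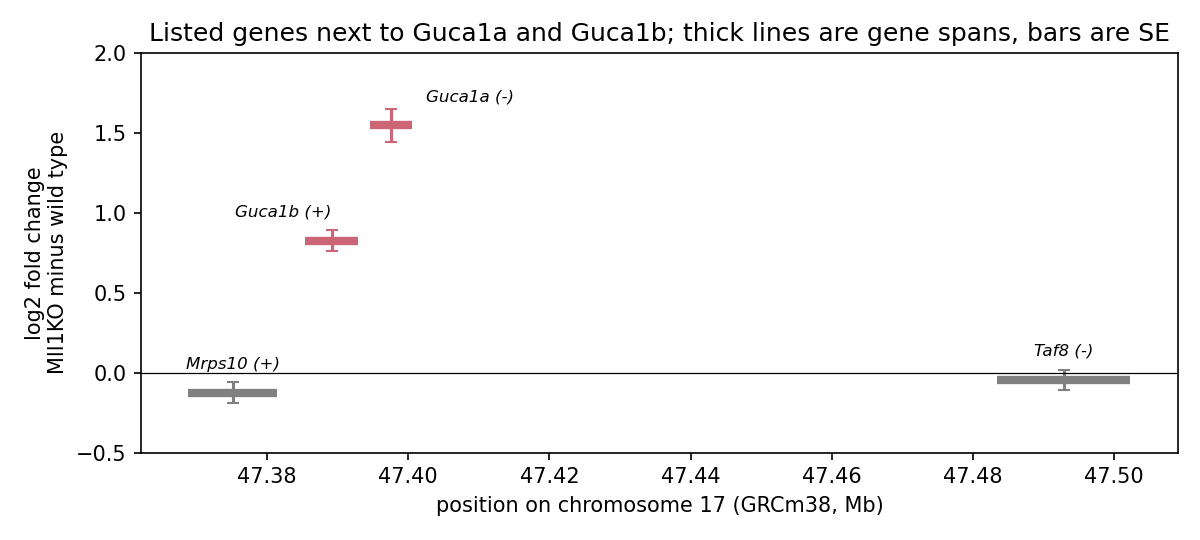
Log2 fold change, *Mll1KO* minus WT (y axis), of the listed genes next to *Guca1a* and *Guca1b* by position on chromosome 17 of GRCm38 in Mb (x axis); thick lines are gene spans with the strand in brackets, and bars are SE from limma. *Guca1a* (1.55) and *Guca1b* (0.83) stand above *Mrps10* (-0.13) and *Taf8* (-0.04).

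The other 8 genes lie apart, *Gucy2e*, *Rcvrn* and *Rgs9* on chromosome 11, *Gnb5* and *Slc24a1* on chromosome 9, and *Grk1*, *Rgs9bp* and *Gucy2f* on chromosomes 8, 7 and X. Over the 10 genes there were 16 nearest or overlapping listed neighbours within 100 kb that are not among the 10. Of these, 1 rose and 2 fell (1 higher and 8 lower when scaled to rod markers). Over all genes, 8.81% rose and 14.5% fell (3.89% higher and 56.3% lower when scaled to rod markers). *Gas7* (0.42, adjusted p = 0.000136) and *Gsg1l2* (-0.65, adjusted p = 0.000608) flank *Rcvrn* and moved in opposite directions, and *Vwa9* (-0.28, adjusted p = 0.0104) lies beside *Slc24a1*. *Rcvrn* itself lies inside the span of *Glp2r*, without shared exon bases. *Gnb5* shares 248 of its exon bases with the antisense gene *Gm19531*, and since the sources used here do not say whether reads were counted by strand, its value may include reads of that gene. Of the 50-base stretches of *Grk1* and *Rgs9* transcripts, 2.92% and 1.2% occur in other genes, and 0 of those of the remaining genes.

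The 5 genes whose log2(RPKM + 1) was most like that of *Guca1a* over the 6 libraries were *Kctd6* (Pearson r = 0.9997), *Pitpnm2os2* (0.9985), *Zfyve28* (0.9984), *Glul* (0.9976) and *BC055402* (0.9966). Each has 3 low WT and 3 high *Mll1KO* libraries like *Guca1a*, so that r over these 6 points mostly reflects the split by genotype. Their fold changes covered a wide range, from 0.18 for *Kctd6* to 1.97 for *BC055402*.

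Promoter sequences from RefSeq (GRCm38.p6) were at hand for 7 of the 10 genes, *Guca1b*, *Rcvrn* and *Rgs9bp* being the others. The 250 bases before each start were searched on both strands for GGATTA, or on the other strand TAATCC, the letters of a homeodomain site of the photoreceptor factor CRX, and for TGCTGA, or on the other strand TCAGCA, the core letters of a site of the rod factor NRL. *Guca1a*, *Gucy2e*, *Gucy2f* and *Gnb5* hold the CRX letters in either orientation, 4 of 7, while *Grk1*, *Rgs9* and *Slc24a1* do not. Of all 32851 promoters of the same length 6.25% hold the CRX letters, and so do 5 of the 10 rod markers with a RefSeq promoter there. The NRL letters were in *Rgs9* alone among the 7, in 2 of the 10 rod markers and in 16.1% of all promoters. The annotated *Rgs9* transcripts do not begin within the 50 bases after its RefSeq start. The matches are letters in the sequence, and binding was not measured in these libraries.

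The 120 bases before the start are shown for the 4 genes with a match, since these include both the gene with the largest difference and a gene whose groups overlapped. They are written 5′ to 3′ on the strand of the gene, and capitals mark GGATTA or TAATCC. The positions are chr17:47400607-47400726 for *Guca1a*, chr11:69237023-69237142 for *Gucy2e*, chrX:142196937-142197056 for *Gucy2f*, all on the minus strand, and chr9:75306168-75306287 for *Gnb5* on the plus strand. The match begins 57 bases before the start in *Guca1a*, 42 in *Gucy2e*, 84 and 59 in *Gucy2f* and 6 in *Gnb5*.
Guca1a: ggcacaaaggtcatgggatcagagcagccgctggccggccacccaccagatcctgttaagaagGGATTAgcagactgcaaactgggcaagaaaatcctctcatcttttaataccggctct
Gucy2e: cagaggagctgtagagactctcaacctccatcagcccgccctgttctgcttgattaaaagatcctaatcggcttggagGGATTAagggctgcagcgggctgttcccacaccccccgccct
Gucy2f: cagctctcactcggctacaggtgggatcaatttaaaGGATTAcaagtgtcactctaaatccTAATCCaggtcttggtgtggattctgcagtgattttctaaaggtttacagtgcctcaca
Gnb5: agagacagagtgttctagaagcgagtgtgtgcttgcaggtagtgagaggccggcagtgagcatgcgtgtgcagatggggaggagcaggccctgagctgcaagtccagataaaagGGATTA

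Markers of other retinal cells differed between the genotypes in the same libraries. Of 10 Müller glia markers 6 rose and 1 fell, and their sum, led by *Glul* at 627 RPKM, was 1443, 1419 and 1568 RPKM in WT a, b and c and 1832, 1918 and 1883 RPKM in *Mll1KO* a, b and c. Of 13 bipolar markers 8 fell, and their sum was 586, 587 and 576 RPKM in WT a, b and c and 488, 482 and 496 RPKM in *Mll1KO* a, b and c. Of 11 amacrine markers (*Th* not listed) 6 fell and 2 rose (6 lower and 0 higher when scaled to rod markers), and the sum, led by *Calb2* at 217 RPKM, was 539, 544 and 560 RPKM in WT a, b and c and 482, 455 and 475 RPKM in *Mll1KO* a, b and c. Bipolar cells use *Gnb5* with other R7 proteins, and the part of these markers in the level of *Gnb5* was not tested.

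Ganglion and horizontal cell markers were lower as well. Of 8 ganglion cell markers (*Isl2* not listed) 7 fell, their sum, led by *Sncg* at 133 RPKM, being 529, 490 and 516 RPKM in WT a, b and c and 414, 367 and 338 RPKM in *Mll1KO* a, b and c. Of 5 horizontal cell markers (*Lhx1* and *Gja10* not listed) 4 fell, with sums, led by *Prox1* at 31.5 RPKM, of 55.5, 56.8 and 52.8 RPKM in WT a, b and c and 38.82, 39.9 and 41.5 RPKM in *Mll1KO* a, b and c. Of 8 endothelial markers 2 fell and 1 rose (6 lower and 1 higher when scaled to rod markers), and the sum, led by *Kdr* at 29.9 RPKM, was 94.2, 93.1 and 91.8 RPKM in WT a, b and c and 75.9, 68.0 and 70.0 RPKM in *Mll1KO* a, b and c. Their part in the values of the 10 genes was not tested.

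Markers of pigment epithelium and lens, which lie next to the retina, varied between libraries of the same genotype. Of 11 listed markers of retinal pigment epithelium (RPE), lens and microglia, limma called 0, with 2 at an unadjusted p under 0.05 and 0 called by limma-voom, while without WT b limma called 3 RPE markers. The RPE sum, led by *Ttr* at 74.1 RPKM, was 224, 118 and 334 RPKM in WT a, b and c and 108, 230 and 112 RPKM in *Mll1KO* a, b and c, with *Rpe65*, *Lrat*, *Best1* and *Mlana* not listed. *Cryaa*, the 1 lens gene listed, had 32.1 RPKM in *Mll1KO* a and 6.54 to 12.4 RPKM in the other libraries. The microglia sum was 15.8 to 18.3 RPKM over the 6 libraries, led by *C1qb* at 6.72 RPKM, with *C1qa*, *Tyrobp*, *Trem2*, *P2ry12* and *Aif1* not listed. Within each genotype, *Guca1a* put the 3 libraries in the same order as the RPE sum did, and *Guca1b* was also highest among WT libraries in WT c. Among *Mll1KO* libraries, however, *Guca1b* was highest in c, while the RPE sum was highest in b. The part of these markers in the level of *Guca1a* was not tested, and without WT c the log2 fold change of *Guca1a* was 1.67.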

How the data were processed

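RNA from 3 *Mll1KO* and 3 WT retina samples was sequenced by the authors as single-end reads of 50 bases. Per their Methods, reads were aligned with STAR 2.0.4b to a mouse Ensembl build written there as GRCh38.76 (mm10 in the submitters' processing notes) and counted with featureCounts 1.45. The Methods and the notes give different versions of edgeR for the authors' comparison. The deposited table holds the authors' RPKM per gene and library, for genes with a CPM above 5 in at least 5 samples; its columns of fold change, mean CPM, p-value and FDR hold the authors' own comparison and were not used.

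The 11404 lines held 11339 genes. From RPKM, the read totals of the libraries and the lengths of the genes were found as those that give whole reads within 0.05 reads for 100% of genes, and 53.4% of annotated genes had the exon length of GENCODE vM21 (GRCm38); 734 genes allowed another length, among them *Rgs9*. All 10 genes passed the authors' filter in both genotypes.

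limma 3.58.1 (R 4.3.3) was fitted to log2(RPKM + 1) of the 6 libraries with a variance trend, genotype as the only term, p-values adjusted over 11339 genes by Benjamini-Hochberg and called under 0.05. The pseudocount of 1 understates fold changes of low genes. The authors' count test was replaced, as the design foresaw, because the unit is RPKM. The fit was tested on simulated data with 200 changed genes. Of those with a true log2 change of 0.5 or of 1, 100% were called, and 3.8% of the calls were unchanged genes. The simulation gave all genes the same relative spread and changed fewer genes than were called in the data. Its result therefore does not carry over to these libraries. Python 3.11.15, numpy 2.4.6, pandas 2.3.3 and matplotlib 3.10.9 were used for the rest.

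The members and lists were chosen with earlier results of these data known. Genes were named by rule: the 10 genes, *Kmt2a*, the 3 highest and 3 lowest called genes of each pathway list, counterparts or partners (*Sag*, *Arr3*, *Rgs7*, *Rgs11*, *Gpr179*, *Rd3*, *Slc24a2*, *Slc24a4*), nearest listed neighbours within 100 kb, the most abundant gene of each marker list and the 5 genes most correlated with *Guca1a*. A few genes that fall under this rule are not reported here. *Nr2e3*, *Samd7* and *Atp2b1* were named after their values were seen. Alternatives were pseudocounts of 0.1 and 5, a mean RPKM of at least 1, TMM and RLE factors, scaling to rod markers, the replicate letter as a block, limma-voom on recovered reads, no variance trend and leaving out each library.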

Additional observations from a re-analysis of the deposited data

How the results depend on the processing

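The number of genes called was 2643, of which 37.8% were higher in *Mll1KO*. It was 6829 when libraries were scaled to rod markers (6.46% higher) and 1704 to 2536 without 1 library, lowest without WT b (1704) and *Mll1KO* c (1757). The share higher was 51.9% with TMM factors and 53.1% with RLE factors. Of the 10 genes, 8 were called, 5 when scaled to rod markers and 7 to 9 without 1 library (23.3% of all genes were called, and nothing is read from these counts), and their median log2 fold change of 0.28 became 0.12 when scaled to rod markers. The 25 pathway genes called became 28 with that scaling, with 10 higher and 18 lower in place of 21 and 4, and 17 to 23 without 1 library. The 3 neighbours called became 9 with that scaling and 3 to 5 without 1 library (5 without *Mll1KO* b). With that scaling, 7 rod markers were called in place of 12, 7 endothelial markers in place of 3, and 1 RPE and 1 microglia marker in place of 0. Without 1 library, 9 to 13 rod, 3 to 4 endothelial, 0 to 3 RPE (3 without WT b, 2 without *Mll1KO* b), 0 to 1 lens and 0 to 1 microglia markers were called, the last pair without *Mll1KO* c. The causes were not tested.

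Libraries of the same letter showed no positive correlation of deviations, at -0.039, -0.19 and -0.007 for a, b and c. With 3 libraries a group, these correlations cannot decide whether the letters mark a pairing. With the letter as a block, 2242 genes, 21 pathway genes and 8 of the 10 genes were called, and the median of the 10 genes was 0.28.

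Scaled to rod markers, 24 of the 61 pathway genes changed sign, 1 of which, *Atp2b1*, had passed the test without scaling (0.13 turned to -0.02) and also lost its call without 1 library (highest adjusted p = 0.103). Among the named pathway genes and the neighbours of the 10 genes, log2 fold changes with that scaling turned to -0.0856 for *Cntrob*, -0.0635 for *Gas6*, -0.11 for *Gm11696*, -0.0442 for *Myo5a*, -0.0391 for *Nxt2*, -0.14 for *Rd3*, -0.0319 for *Rgs11*, -0.0024 for *Slc24a2* and -0.0441 for *Slc24a4*. With TMM and RLE factors they turned to 0.0119 and 0.0142 for *Dennd4a*, 0.0228 and 0.0251 for *Glp2r*, and 0.0184 and 0.0209 for *Gnb3*. Without 1 library the range crossed 0 for *Dennd4a* (-0.0329 to 0.0014), *Glp2r* (-0.13 to 0.10), *Gm11696* (-0.042 to 0.065), *Gnb3* (-0.0428 to 0.0091), *Rd3* (-0.0587 to 0.0933) and *Taf8* (-0.10 to 0.0126). Apart from *Atp2b1*, none of these genes passed the test in the unscaled fit to all libraries. Without 1 library, *Guca1a* stayed between 1.453 (without WT b) and 1.67 (without WT c), and *Guca1b* between 0.79 and 0.90.

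Whole-retina RNA does not assign a gene to a cell type.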
